A study of Mus musculus with 4 samples.

Results

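Peaks of open chromatin that lie close together were compared between control and Plagl1 knockout cells of the mouse periosteum. Of the 85925 consensus peaks in the authors' deposited table, 1751 (2.04%) were under 1500 bp wide and had at least 10 other consensus peak centres within 25 kb on the same chromosome, and these are called dense-cluster peaks. Position and width chose them, and the fold and p-value of a peak did not enter the choice. The consensus peaks serve both genotypes, and whether peaks open in a single genotype raised the neighbour counts was not tested. A further 30 peaks met the distance rule but were 1500 bp wide or wider and were left out. The assay was ATAC-seq, which uses a transposase to cut and tag open DNA, on periosteal stem/progenitor cells. These cells are bone-forming progenitors of the membrane around bone. Mice of 8 weeks of age gave the mandibular angle tissue, and the cells were cultured and given ascorbic acid, β-glycerophosphate and dexamethasone for 3 days to induce osteogenesis. The control group had 2 libraries of genotype Plagl1fl/fl, and the knockout group had 2 libraries of genotype Ctsk-iCre;Plagl1fl/fl.

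Both groups carried the floxed Plagl1 alleles, which encode a zinc finger transcription factor and are imprinted. The groups differed in Ctsk-iCre, a recombinase expressed from the cathepsin K locus, so an effect of Cre and an effect of the deletion cannot be told apart. Cathepsin K marks periosteal progenitors and is also made by osteoclasts, so cells that never expressed it keep the gene intact. The labels do not say whether the libraries of a genotype came from separate animals, and the p-values then measure only the spread between these libraries, which may be technical. Values per library are not analysed here, since the authors' deposited table gives 1 fold, 1 F statistic and 1 p-value per peak, and the depth of each library is unknown. A positive log2 fold is read as higher accessibility in the knockout, but neither the headers nor the gain and loss labels say which genotype the gains belong to. If the ratio runs the other way, every gain given here is a loss and every loss a gain.

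Stretches of closely spaced open sites are of interest because regulatory elements often come in groups. Genes that define a cell type are often flanked by many enhancers, and such groups are called super-enhancers where they also carry heavy marking by active histone modifications or coactivators, which were not measured here. Gene-rich DNA also packs promoters close together, so a dense cluster is not by itself an enhancer group. Accessibility of an element mostly reflects whether transcription factors and remodellers hold nucleosomes away from it.

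Promoters are the places in these clusters where accessibility and a known gene start meet, and 20 called dense-cluster peaks lay within 1 kb of a start site, at 17 genes. RefSeq promoter windows of build GRCm38.p6, which run from 250 bases before to 50 after a start site, were listed for 11 of the 17 genes. The windows below belong to the called promoter peaks with the smallest p-values that overlapped a single listed window by at least 100 bases, and are shown to let the gained and the lost promoters be read side by side. They are given 5′ to 3′ along the gene. Capitals mark any of 4 motifs searched on both strands, namely GAGGAAGT of the myeloid factor PU.1, TGANTCA of AP-1, the GC box GGGCGGGG and the CACCC box GGGTGTGG, the last 2 of which are bound by SP and KLF factors.
Gpr84, gained, chromosome 15, minus strand: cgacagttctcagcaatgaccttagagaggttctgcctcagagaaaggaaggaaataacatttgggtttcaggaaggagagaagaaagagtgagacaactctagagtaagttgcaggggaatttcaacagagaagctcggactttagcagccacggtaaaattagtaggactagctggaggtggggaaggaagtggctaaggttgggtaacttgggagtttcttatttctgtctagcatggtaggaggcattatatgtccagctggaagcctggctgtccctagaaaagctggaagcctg
Gpr132, gained, chromosome 12, minus strand: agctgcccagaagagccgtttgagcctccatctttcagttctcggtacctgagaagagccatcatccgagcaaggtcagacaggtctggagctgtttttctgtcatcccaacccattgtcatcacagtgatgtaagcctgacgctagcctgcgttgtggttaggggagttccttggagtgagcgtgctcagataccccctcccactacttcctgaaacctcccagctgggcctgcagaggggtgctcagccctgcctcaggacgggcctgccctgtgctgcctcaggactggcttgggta
Tnfaip2, gained, chromosome 12, plus strand: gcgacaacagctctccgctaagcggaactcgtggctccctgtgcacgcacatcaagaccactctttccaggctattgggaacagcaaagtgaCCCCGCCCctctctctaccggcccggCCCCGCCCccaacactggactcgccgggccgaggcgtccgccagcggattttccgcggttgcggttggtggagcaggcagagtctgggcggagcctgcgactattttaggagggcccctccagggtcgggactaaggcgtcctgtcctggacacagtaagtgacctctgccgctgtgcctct
G430095P16Rik, lost, chromosome 8, plus strand: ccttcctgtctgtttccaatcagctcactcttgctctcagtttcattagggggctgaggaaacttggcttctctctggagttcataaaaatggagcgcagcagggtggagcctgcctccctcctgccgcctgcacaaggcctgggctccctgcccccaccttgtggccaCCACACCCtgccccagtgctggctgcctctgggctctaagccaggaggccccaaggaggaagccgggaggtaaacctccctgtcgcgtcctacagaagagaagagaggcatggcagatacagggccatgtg
Fkbp8, lost, chromosome 8, plus strand: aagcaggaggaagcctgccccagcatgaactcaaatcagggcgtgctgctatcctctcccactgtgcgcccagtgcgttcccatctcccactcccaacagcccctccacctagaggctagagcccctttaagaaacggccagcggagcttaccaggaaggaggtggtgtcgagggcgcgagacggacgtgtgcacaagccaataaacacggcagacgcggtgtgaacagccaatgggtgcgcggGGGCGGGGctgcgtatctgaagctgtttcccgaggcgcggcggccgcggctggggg
Mical2, lost, chromosome 7, plus strand: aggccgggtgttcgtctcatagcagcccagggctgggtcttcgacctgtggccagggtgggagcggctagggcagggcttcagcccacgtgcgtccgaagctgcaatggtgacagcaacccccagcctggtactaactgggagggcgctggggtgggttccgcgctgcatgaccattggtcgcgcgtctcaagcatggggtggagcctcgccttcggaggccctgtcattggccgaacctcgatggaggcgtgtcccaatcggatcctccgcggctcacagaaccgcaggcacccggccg
Capg, lost, chromosome 6, plus strand: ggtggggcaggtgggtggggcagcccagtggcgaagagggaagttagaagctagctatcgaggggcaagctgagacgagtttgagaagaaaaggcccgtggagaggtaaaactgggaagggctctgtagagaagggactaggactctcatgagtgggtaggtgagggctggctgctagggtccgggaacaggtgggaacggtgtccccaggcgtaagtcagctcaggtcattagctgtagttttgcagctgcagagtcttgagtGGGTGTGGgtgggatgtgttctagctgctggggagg

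The Tnfaip2 window held the GC box at 2 places and the Fkbp8 window at 1, and the G430095P16Rik and Capg windows each held 1 CACCC box. None of the 4 motifs, spelled this way, lay in the Gpr84, Gpr132 or Mical2 windows. Genes with a called promoter peak had 12 listed windows, counted whether or not the peak overlapped them. The PU.1 and AP-1 motifs each lay in 1 of the 12, and the GC box and CACCC box each in 2. Over the 32851 listed promoter windows outside chromosome 18, the GC box lay in 17.6%, the CACCC box in 3.56%, the AP-1 motif in 7.81% and the PU.1 motif in 3.20%. Base composition of the windows shown ranged from 47% G and C at Gpr84 to 66.7% at Mical2, beside a median of 52.7% over the same 32851 windows. A match describes letters and not binding.

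A larger share of dense-cluster peaks than of all peaks gained accessibility, while the share of losses was close to the background. Of 1751 dense-cluster peaks in the authors' deposited table, 135 were gained at an edgeR FDR under 0.05 (7.71%, with a 95% interval of 6.50 to 9.06% by the exact Clopper-Pearson method, which covers counting error only), beside a background of 3.14% over all consensus peaks. Lost peaks numbered 43 (2.46%, interval 1.78 to 3.29%), beside a background of 2.48% per the authors' deposited table. Gains thus made up 75.8% of the 178 called dense-cluster peaks (interval 68.9 to 81.9%), 55.8% of all called peaks and 44.3% of the called peaks among the 7307 isolated peaks, which had no other centre within 25 kb. Neighbouring peaks share a locus, so these intervals are too narrow, and the difference from the background was not tested.

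The changes were small in size. Gained dense-cluster peaks had a median log2 fold of 0.44 and lost ones of -0.35, whereas the medians over all called peaks of the authors' deposited table were 0.57 and -0.38. The largest rise was 1.26 and the largest fall was -0.83 on the log2 scale, and 3 gained and 0 lost dense-cluster peaks reached an absolute log2 fold of 1 per the authors' deposited table. The rise of 1.26 and all 3 of these gains lay in the weakest quintile of all peaks by mean signal. The fall of -0.83 lay in the second weakest quintile. Over all 1751 dense-cluster peaks the median log2 fold was 0.03 and 55.9% of folds were above 0, against a median of 0.002 and 50.4% over all consensus peaks. At an unadjusted p under 0.05 there were 478 of the 1751 dense-cluster peaks, beside 17055 of all 85925 consensus peaks per the authors' deposited table.

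**Figure D1:**
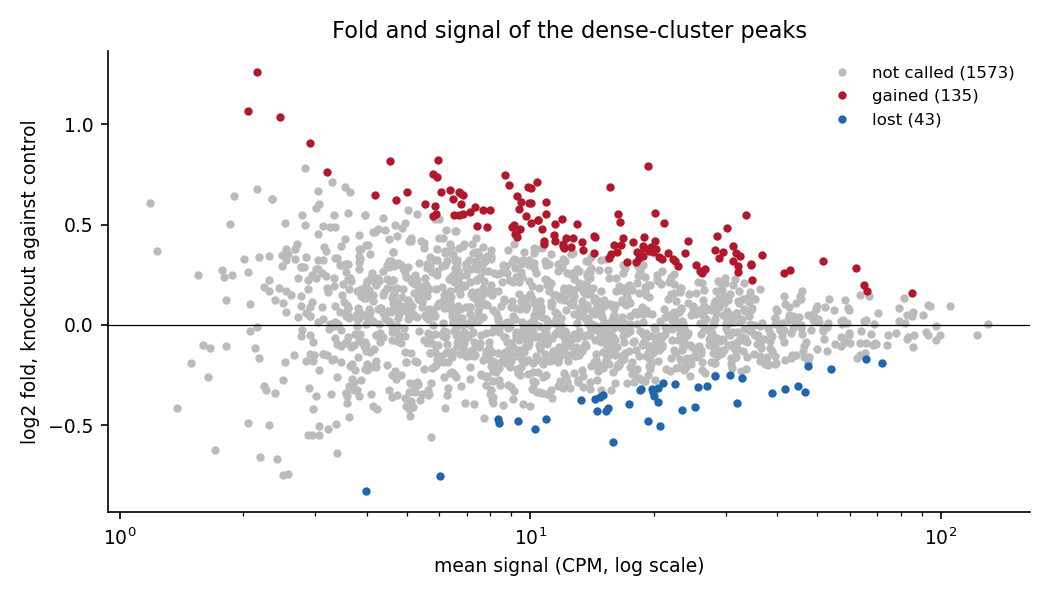
Each point is 1 of the 1751 dense-cluster peaks, with its mean signal in CPM (log axis) against its log2 fold of knockout over control, both from the authors' deposited table. Red marks the 135 gained peaks, blue the 43 lost peaks and grey those not called, and the smallest called folds lie at the strongest peaks.

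Gains kept their lead over losses under the other call rules, with 1 rule leaving almost no call. At an FDR under 0.01 there were 66 gained dense-cluster peaks (3.77%, background 1.17%) and 13 lost (0.742%, background 0.775%). With a log2 fold of 0.5 or more in size demanded as well as an FDR under 0.05 there were 57 gained (3.26%, background 1.91%) and 5 lost (0.286%, background 0.69%). Fold and signal were related across peaks, and with a running median of the fold along signal subtracted, 162 dense-cluster peaks were gained (9.25%, background 3.17%) and 23 lost (1.31%, background 1.55%), which raised the gained share of calls to 87.6%. Among the 1333 dense-cluster peaks above the median signal of all peaks, adjusted over that stronger set alone, 144 were gained (10.8%, background 5.24%) and 55 lost (4.13%, background 5.86%). With an assumed coefficient of variation of 0.1 between libraries added to the deposited standard error, 1 dense-cluster peak was gained (0.0571%, background 0.0559%) and 0 were lost (background 0.00815%), so the calls rest on the small spread that the deposited test used.

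The share of gained peaks was higher at each step of neighbour number from isolated peaks up to 11 or 12 neighbours, and the share of lost peaks was nearly flat over that range. Among peaks under 1500 bp wide per the authors' deposited table, gains made up 1.90% of peaks with 0 neighbours, 2.86% with 3 or 4, 3.87% with 5 or 6, 5.13% with 7 or 8, 7.56% with 10 and 8.33% with 11 or 12. Losses made up 2.29% of peaks with 0 neighbours and 2.49% of those with 11 or 12 per the authors' deposited table. Just outside the rule, the 1905 peaks with 9 neighbours held 104 gains (5.46%) and 50 losses (2.62%), and just inside it the 939 peaks with 10 neighbours held 71 gains and 21 losses (2.24%). The 128 peaks with 13 to 19 neighbours held 7 gains (5.47%, interval 2.23 to 10.9%) and 5 losses (3.91%, interval 1.28 to 8.88%), too few to place beside the other steps.

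**Figure D2:**
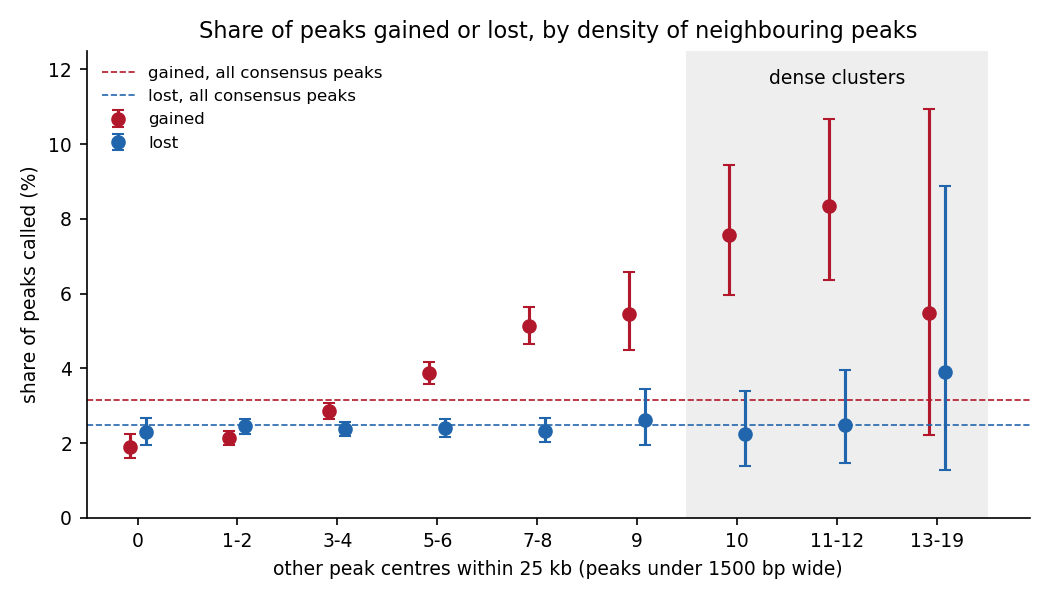
Share of peaks under 1500 bp wide that were gained (red) or lost (blue), by the number of other peak centres within 25 kb, with 95% intervals by the exact Clopper-Pearson method. Dashed lines give the share over all consensus peaks, 3.14% gained and 2.48% lost, and the shaded steps are the dense clusters.

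Dense-cluster peaks were also stronger, with a median of 10.3 CPM (read counts scaled to library size) against 5.51 CPM over all peaks and 3.69 CPM among isolated peaks, and stronger peaks are called more easily. The comparison was therefore also laid out within quintiles of all peaks by mean signal. In the strongest quintile, 10.3% of the 562 dense-cluster peaks were gained, compared with 3.30% of the other peaks and 1.61% of isolated peaks per the authors' deposited table. In the next quintile the gained shares were 8.84% of 554 dense-cluster peaks, 4.92% of other peaks and 3.47% of isolated peaks. Losses ran the opposite way in the strongest quintile, at 4.98% of dense-cluster peaks, 7.03% of other peaks and 7.60% of isolated peaks per the authors' deposited table. The dense-cluster interval for these losses, 3.34 to 7.12%, held the share of other peaks. With the trend along signal subtracted, the lost shares in that quintile were 1.96%, 2.27% and 2.75% in the same order. In the second weakest quintile the order of gains was reversed, with 1.45% of 207 dense-cluster peaks gained against 2.11% of other peaks, a difference inside the dense-cluster interval.

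**Figure D3:**
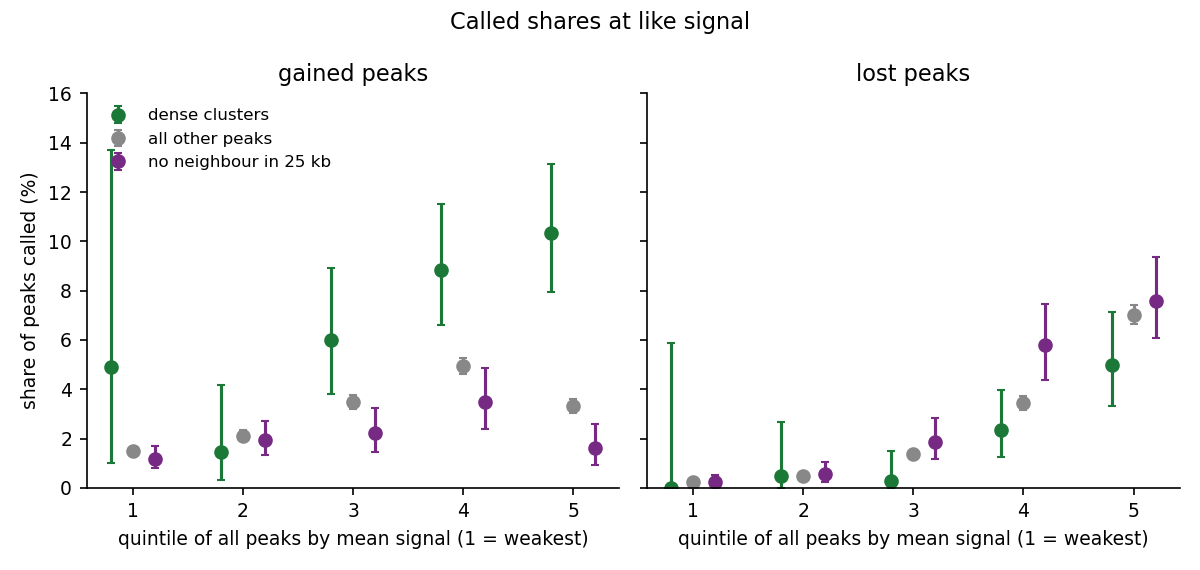
Share of gained (left) and lost (right) peaks by quintile of mean signal, for dense-cluster peaks (green), all other peaks (grey) and peaks without a neighbour in 25 kb (purple), with 95% intervals by the exact Clopper-Pearson method. In the 3 strongest quintiles the green points lie above the others for gains and below them for losses.

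Dense-cluster peaks joined wherever their centres followed within 25 kb formed 366 clusters with a summed span of 5892 kb. A cluster held a median of 3 and at most 22 dense-cluster peaks, 90 held 1, and the 52 clusters of 10 or more held 663 of them. Of the 366 clusters, 88 had a gained peak and 38 had a lost peak per the authors' deposited table. There were 25 clusters with at least 2 gained and 0 lost peaks, 3 with at least 2 lost and 0 gained peaks, and 10 with both. Gains were spread over many loci: the most in 1 cluster was 4, and 75 of the 135 lay in 28 clusters with at least 2. Of the 52 clusters with 10 or more members, 18 had no called peak.

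Chromosome 11 held the most dense-cluster peaks, 191 (3.24% of its peaks), of which 17 were gained and 2 lost per the authors' deposited table. Over all chromosomes 7.71% of dense-cluster peaks were gained and 2.46% lost. Chromosome 16 held 15 (0.478% of its peaks) with 0 gained and 0 lost. Genes are named only for peaks with an unadjusted p under 0.05 and a log2 fold of 0.2 or more in size, which were 416 dense-cluster peaks at 224 genes. No dense-cluster peak was named for Plagl1, and whether marker loci of periosteal cells were open could not be read from these names. Gained peaks lay by 95 of these 224 genes and lost peaks by 37 per the authors' deposited table. Over all consensus peaks 8173 genes were named, with gained peaks by 2002 of them and lost peaks by 1686.

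On the inflammatory signalling and the leukocyte and macrophage lists, every called dense-cluster peak was a gain, at 4 genes. Spi1, which encodes PU.1, the factor that directs macrophage and other myeloid fates, had 5 dense-cluster peaks within 5410 bp on chromosome 2 (90911557 to 90916967, mm39). All 5 had folds above 0, and 3 were gained per the authors' deposited table. The peak 279 bp upstream of the start site had a log2 fold of 0.61 (FDR 0.000708, SE 0.132 computed from the F statistic, 10.9 CPM) per the authors' deposited table. The peaks in intron 1 at 695 and 2122 bp rose by 0.38 (FDR 0.00595, SE 0.0963) and 0.41 (FDR 0.0305, SE 0.125) on the log2 scale. The remaining peaks had log2 folds of 0.24 and 0.30 and FDR of 0.449 and 0.144 per the authors' deposited table.

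Lcp2, which encodes the adaptor SLP-76 of leukocyte signalling, had 7 dense-cluster peaks on chromosome 11 (33983975 to 34008503), 6 of them above 0 and 3 gained. The gained peak in intron 2 (34003437 to 34003888) had a log2 fold of 0.71 (FDR 6.93e-05, SE 0.135), and those 12705 and 11940 bp upstream had 0.66 and 0.60 per the authors' deposited table. Gpr84, a receptor of medium-chain fatty acids on myeloid cells, was gained at its promoter (chromosome 15, 103218830 to 103219317), with a log2 fold of 0.69 (FDR 8.96e-07, SE 0.110) per the authors' deposited table. The only other dense-cluster peak of that cluster, in an intron of Copz1, had a log2 fold of -0.25 and an FDR of 0.116. Gpr132, a lysolipid and proton receptor, had the largest gain among annotated dense-cluster peaks above the median signal, 0.82 (FDR 0.000838, SE 0.178) at 3 bp from its start site (chromosome 12, 112824373 to 112824694) per the authors' deposited table. Lcp2, Gpr84 and Gpr132 are on neither list and were named for the size of their gains. Off the lists a loss was also called, by the chemokine receptor gene Ccr7 (chromosome 11, 99015324 to 99015963). Its log2 fold was -0.37 (FDR 0.0382), and it did not pass with the trend along signal subtracted (adjusted p 0.0698).

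Socs3, an inhibitor of cytokine signalling through JAK and STAT, lay by a cluster of 17 peaks on chromosome 11 (117821705 to 117882850). Its 3 gained peaks were all intergenic, 22678 and 9296 bp downstream and 8663 bp upstream of the start site, with log2 folds of 0.55 (FDR 5.77e-09, SE 0.0750), 0.56 (SE 0.0966) and 0.66 (FDR 0.00954, SE 0.177) per the authors' deposited table. The strongest peaks there were not called, and the 3 strongest had log2 folds of -0.08, -0.03 and 0.07. Tnfaip2, a gene induced by tumour necrosis factor, was gained at its promoter by 0.28 (FDR 0.00352, SE 0.0668) and 833 bp upstream by 0.50 (FDR 0.0183, SE 0.144) per the authors' deposited table. Ccl2, which encodes a monocyte chemoattractant, was gained 19116 bp upstream (chromosome 11, 81907033 to 81907541) by 0.44 (FDR 0.00156, SE 0.0997), while its promoter peak at 131 bp upstream had a log2 fold of 0.23 and an FDR of 0.0523.

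Of the 23 genes on the inflammatory signalling list, 4 had annotated dense-cluster peaks and 3 of these (Ccl2, Socs3 and Tnfaip2) were gained at 6 peaks, with 0 lost. Over all consensus peaks 20 of the 23 had an annotated peak, and 11 genes were gained at 19 peaks and 2 lost at 5 peaks. Of the 20 leukocyte and macrophage markers, 2 had annotated dense-cluster peaks: Spi1, and Mpeg1 with a log2 fold of 0.30 and an FDR of 0.0514. Over all consensus peaks 16 of these 20 markers had an annotated peak, and 10 were gained and 0 lost per the authors' deposited table. Of the 16 osteoclast markers, Atp6v1b2, a proton pump subunit, and Mmp9, a gelatinase, had annotated dense-cluster peaks and both were gained, by 0.48 (FDR 0.0232, SE 0.142) and 0.51 (FDR 0.0110, SE 0.137) per the authors' deposited table. Both gained peaks were intergenic, 80663 bp upstream of the start site of Atp6v1b2 and, on a repeat, 12121 bp upstream of that of Mmp9. Over all consensus peaks 9 osteoclast markers were gained and 1 was lost. More myeloid cells in the knockout cultures and more open chromatin per cell cannot be told apart in bulk libraries. The part of such cells in the gains was not tested. Without the 8 clusters that hold an annotated gene of these 3 lists, 124 of 1693 dense-cluster peaks were gained (7.32%, background 3.14%) and 43 lost (2.54%, background 2.48%). Annotation needs a peak past the limits on p and fold given above, so the contrast itself picked these clusters. The count therefore cannot give the part of myeloid cells in the gains. That count was chosen after the data were seen. The gained clusters of Lcp2, Gpr84 and Gpr132 stayed in it, since these genes are on none of the 3 lists.

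The 2 largest clusters, of 22 dense-cluster peaks each, both held 4 gained and 0 lost peaks. Zmiz1, a coactivator related to the PIAS proteins, spanned one of them (chromosome 14, 25457830 to 25520592). Its gains lay in intron 1 at 13805, 34449 and 37602 bp from the start site, with log2 folds of 0.32 (FDR 0.00407, SE 0.0779), 0.43 (SE 0.124) and 0.55 (SE 0.169), and in intron 2 with 0.29 (FDR 0.0305, SE 0.0908) per the authors' deposited table. In all 17 of its 22 folds were above 0, and the lowest, -0.29 with an FDR of 0.0808, lay 1553 bp upstream of the start site.

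The other lay by Mir29b-1 on chromosome 6 (31035578 to 31109583). Mir29b-1 and Mir29a are neighbours that encode microRNAs of the miR-29 family, known to repress many collagen messages. Their 3p arms are shown, from RefSeq, because they share the seed, bases 2 to 8, in capitals.
mmu-miR-29a-3p: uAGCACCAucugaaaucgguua
mmu-miR-29b-3p: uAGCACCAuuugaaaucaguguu
The gained peaks fell in pairs. Those 15504 and 18094 bp upstream of Mir29b-1 had log2 folds of 0.36 (FDR 0.0298, SE 0.109) and 0.26 (FDR 0.00880, SE 0.0678), and those in intron 3 of Lncpint, a long non-coding RNA gene, had 0.59 (FDR 0.0123, SE 0.161) and 0.49 (FDR 0.0430, SE 0.160) per the authors' deposited table. The last did not pass with the trend along signal subtracted (adjusted p 0.0544). Of the 22 folds in this cluster 12 were above 0, and the lowest was -0.17.

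Ninj1, which encodes a membrane rupture protein, had 8 dense-cluster peaks on chromosome 13 (49331426 to 49354781), all above 0 with 4 gained. The largest gain, 0.61 (FDR 0.00186, SE 0.141), lay 3573 bp upstream, and those 9349 and 11448 bp downstream of the start site had 0.50 (SE 0.120) and 0.53 (SE 0.126) per the authors' deposited table. Gas7, a growth arrest gene, had 14 dense-cluster peaks on chromosome 11 (67440562 to 67491965), of which 12 were above 0 and 3 were gained. Its gains in intron 1 ranged from 0.26 (FDR 0.0471, SE 0.0849) to 0.63 (FDR 0.0116, SE 0.171), and the strongest peak of the cluster, at 54.9 CPM, had a log2 fold of 0.07 per the authors' deposited table. Rin3, an activator of the endosomal GTPase RAB5, had 11 peaks on chromosome 12 (102237395 to 102269576), all above 0 and 3 gained, the largest by 0.68 (FDR 0.000212, SE 0.137) in intron 1 of 9. Among the 149 clusters with at least 5 members, 8 had every fold above 0 and 2 had every fold below 0. The 2 latter were the clusters of Wbp1l and Mir3089, each with 6 dense-cluster peaks and 0 called, and their median log2 folds were -0.26 and -0.21.

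**Figure D4:**
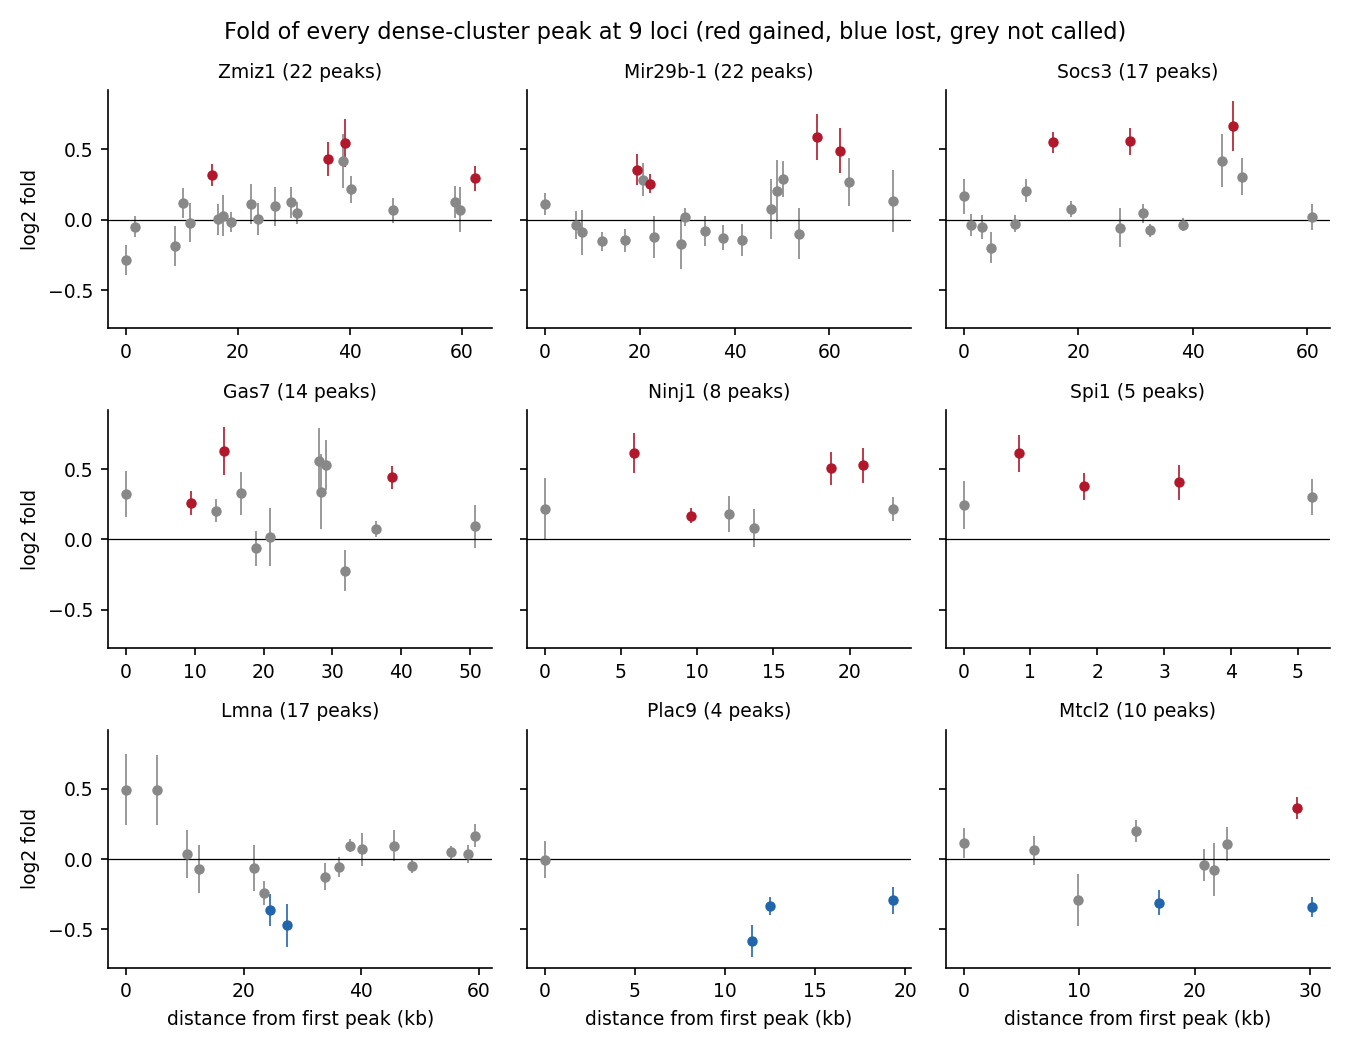
Log2 fold of every dense-cluster peak at 9 loci against its distance from the first peak of the cluster in kb, with bars of 1 standard error implied by the deposited F statistic. Red peaks were gained, blue lost and grey not called, and gained peaks stand among uncalled ones at Zmiz1, Mir29b-1 and Socs3, while gained and lost peaks stand side by side at Mtcl2.

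The smallest p-value of any dense-cluster peak belonged to an intergenic peak 196038 bp from the start site of 5930403N24Rik on chromosome 10 (37214250 to 37214758). Its log2 fold was 0.79 (FDR 4.38e-11, SE 0.0985, 19.4 CPM) per the authors' deposited table, and it was the dense-cluster peak that still passed with a coefficient of variation of 0.1 added (adjusted p 0.0207). Prss38 (the peak lies in Snap47), Tbc1d2b, a GTPase-activating protein for RAB proteins, Lrrc32, which holds latent TGF-beta at the cell surface, Myof, a membrane repair protein of the YAP/TEAD responsive list, and A630001O12Rik had gains of 0.69 to 0.75 per the authors' deposited table. Of the 18 genes on that list, 2 had annotated dense-cluster peaks, and the other, Arhgef17, was lost. Over all consensus peaks 3 genes of the list were gained and 1 was lost. Dusp1, a phosphatase of MAP kinases induced by glucocorticoids, was gained 10864 bp from its start site (chromosome 17, 26716257 to 26716908) by 0.48 (FDR 2.15e-06, SE 0.0791), the only call among its 14 dense-cluster peaks. Tsc22d3, the other gene of the glucocorticoid response list with an annotated dense-cluster peak, had a log2 fold of 0.22 (FDR 0.155) and was not called. Over all consensus peaks 6 genes of that list were gained and 1 was lost per the authors' deposited table. Csf1, the macrophage and osteoclast growth factor, had 1 gained peak of 16, 23001 bp upstream, with a log2 fold of 0.67 (FDR 0.00652, SE 0.172) per the authors' deposited table.

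Lost peaks lay by Lmna, Myh9, Capzb, Plac9 and several non-coding transcripts. Lmna, which encodes the lamins A and C, had 17 dense-cluster peaks on chromosome 3 (88362119 to 88421852), of which an intergenic peak and one at the transcript end were lost, by -0.36 (FDR 0.0380, SE 0.116) and -0.47 (FDR 0.0466, SE 0.156) per the authors' deposited table. The 3 strongest peaks of that cluster, at 90.7 to 94.0 CPM, had log2 folds from -0.05 to 0.10 and none was called. Myh9, the heavy chain of non-muscle myosin IIA, was lost by -0.52 on the log2 scale in intron 1 of 40 (chromosome 15, 77707823 to 77708254; FDR 0.0106, SE 0.140), 1 of 11 dense-cluster peaks there. Capzb, an actin capping subunit, had 1 lost peak of 15, in intron 1, with a log2 fold of -0.22 (FDR 0.0135, SE 0.0607) per the authors' deposited table.

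Of the 28 genes on the actin cytoskeleton and adhesion list, 6 had annotated dense-cluster peaks. Pxn, which encodes the focal adhesion protein paxillin, and Tns1, which encodes tensin, were gained, and Lmna, Myh9 and Pxn were lost, so that Pxn counts on both sides. Over all consensus peaks 23 of the 28 genes had an annotated peak, with 10 genes gained at 19 peaks and 6 lost at 7 peaks. The Tns1 peak, in intron 4 of 34, had a log2 fold of 0.52 (FDR 0.00667, SE 0.134) per the authors' deposited table. Mical2, an enzyme that oxidises actin filaments, and Capg, another actin capping protein, were lost at promoters shown above, with log2 folds of -0.20 (FDR 0.0354, SE 0.0644) and -0.35 (FDR 0.0457, SE 0.114) per the authors' deposited table. Fkbp8, which encodes a mitochondrial immunophilin, was lost at its promoter by -0.35 (FDR 0.0148, SE 0.0991). With the trend along signal subtracted, 2 of the 8 lost promoter peaks still passed, those of G430095P16Rik and Mtcl2, and Mical2 (adjusted p 0.195), Capg (0.0916), Fkbp8 (0.0526), Nacc1 (0.0936), Mcts2 (0.150) and the Plac9 peak at 258 bp (0.131) did not. All 12 gained promoter peaks still passed. The intergenic Lmna peak (0.0735) and the Capzb peak (0.108) also lost their calls that way.

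Plac9 on chromosome 14 had the cluster with the most losses, 3 of 4 dense-cluster peaks (25883598 to 25903617). They lay 8103, 7110 and 258 bp from the start site with log2 folds of -0.58 (FDR 0.000118, SE 0.113), -0.33 (SE 0.0653) and -0.29 (FDR 0.0367, SE 0.0933) per the authors' deposited table, and the peak outside the gene had a log2 fold of -0.003. The largest loss by fold above the median signal lay in intron 5 of Niban1, nearest to 2810414N06Rik (chromosome 1, 151555724 to 151555952), at -0.75 (FDR 0.00433, SE 0.186). G430095P16Rik, a transcript of unstated function, stood in a cluster of 20 dense-cluster peaks on chromosome 8 (85412841 to 85493545) with 2 lost, its own promoter at -0.50 (FDR 0.000132, SE 0.0986) and a peak 250 bp from the start site of Nacc1 at -0.33 (FDR 0.0355, SE 0.103) per the authors' deposited table. Losses of -0.49 to -0.43 were also found at E230029C05Rik, at Nnmt, a nicotinamide methyltransferase, at Bmf, a pro-apoptotic BCL2 relative, at Dock10, a guanine nucleotide exchange factor, and at Gm11211. Dkk3, a secreted relative of the WNT inhibitors, was lost in intron 3 of 6 by -0.30 (FDR 0.000943, SE 0.0665) per the authors' deposited table, and Arhgef17, also an exchange factor, by -0.37 (FDR 0.0434, SE 0.122), which did not pass with the trend subtracted (adjusted p 0.0715). Plpp3, a phosphatase of lipid mediators, had 16 dense-cluster peaks of which 13 were below 0, yet 0 were called.

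Genes of the osteoblast programme were absent from the named dense-cluster peaks. None of the 21 osteoblast genes, 31 mesenchymal transcription factors, 21 AP-1 and immediate early genes or 16 KLF and SP factors had an annotated dense-cluster peak. Because genes are named only for peaks past the limits given above, this says that no such peak was both dense and annotated, not that these genes lack dense clusters. Of the 35 extracellular matrix genes, Col6a2 had a log2 fold of -0.23 (FDR 0.0505) and Mmp14 of -0.24 (FDR 0.154) at their best dense-cluster peak per the authors' deposited table. Of the 28 TGF-beta and BMP genes, Ski, a repressor of SMAD signalling, had 0.33 (FDR 0.167) and Smad6, an inhibitory SMAD, had -0.37 (FDR 0.120), and neither passed.

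Gained and lost peaks also met within a locus. In 10 clusters 16 pairs of a gained and a lost dense-cluster peak lay from 1284.5 to 32336 bp apart, with a median of 11633 bp. The nearest pair was at Mtcl2, a microtubule-binding gene also known as Soga1, where a lost peak over the 5′ UTR (chromosome 2, 156920405 to 156921628) had a log2 fold of -0.34 (FDR 0.000548, SE 0.0716) and a gained peak 1453 bp into the gene had 0.36 (FDR 0.00101, SE 0.0801) per the authors' deposited table. At Pxn a lost and a gained peak in intron 1 of 11, centred 1519.5 bp apart, had -0.39 (FDR 0.00623, SE 0.0984) and 0.35 (FDR 0.0205, SE 0.101). Irak2, a kinase of interleukin-1 and Toll-like receptor signalling, had a lost peak of -0.42 (FDR 0.000851, SE 0.0922) in intron 2 between gained peaks of 0.54 (FDR 0.0493, SE 0.181) and 0.66 (FDR 0.0215, SE 0.194) per the authors' deposited table. Tbc1d2b had 0.75 (SE 0.148) in intron 2 and -0.39 (FDR 0.0116, SE 0.107) in intron 1. Septin11, a filament-forming GTPase gene, had gains of 0.55, 0.61 and 0.44 around a loss of -0.30 (FDR 0.0153, SE 0.0854) per the authors' deposited table. These loci were picked for holding calls in both directions. With the trend along signal subtracted such clusters numbered 8, and the loss at Septin11 (adjusted p 0.0795), its gain of 0.55 (0.0560) and the gain of 0.54 at Irak2 (0.0670) no longer passed.

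Folds of adjacent dense-cluster peaks were only weakly alike. Over 142 pairs centred within 1 kb Pearson's r was 0.28 (Spearman's coefficient 0.29), over 337 pairs at 1 to 2 kb 0.30 (0.30), over 483 pairs at 2 to 5 kb 0.17 (0.17) and over 281 pairs at 5 to 10 kb 0.05 (0.05). Pairs of other adjacent peaks had r of 0.22, 0.22, 0.16 and 0.11 at the same distances, so that dense-cluster pairs stood above them within 2 kb, level at 2 to 5 kb and below them at 5 to 10 kb. At 10 to 25 kb r was 0.29 over only 29 dense-cluster pairs and 0.085 over 23726 other pairs. These values are across peaks that share libraries, depth and base composition, so they describe the table and carry no test. Dense-cluster peaks were also stronger than other peaks (median 10.3 against 5.42 CPM), and the effect of that on r was not tested. Of 22 adjacent pairs with both peaks called, 16 were both gained, 3 both lost and 3 opposite, so 86.4% shared a sign, next to 86.5% of 340 such pairs among other peaks. Gains made up 75.8% of called dense-cluster peaks and 55.1% of called other peaks. The mix of calls thus differed, and these shares of like sign are not directly comparable.

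**Figure D5:**
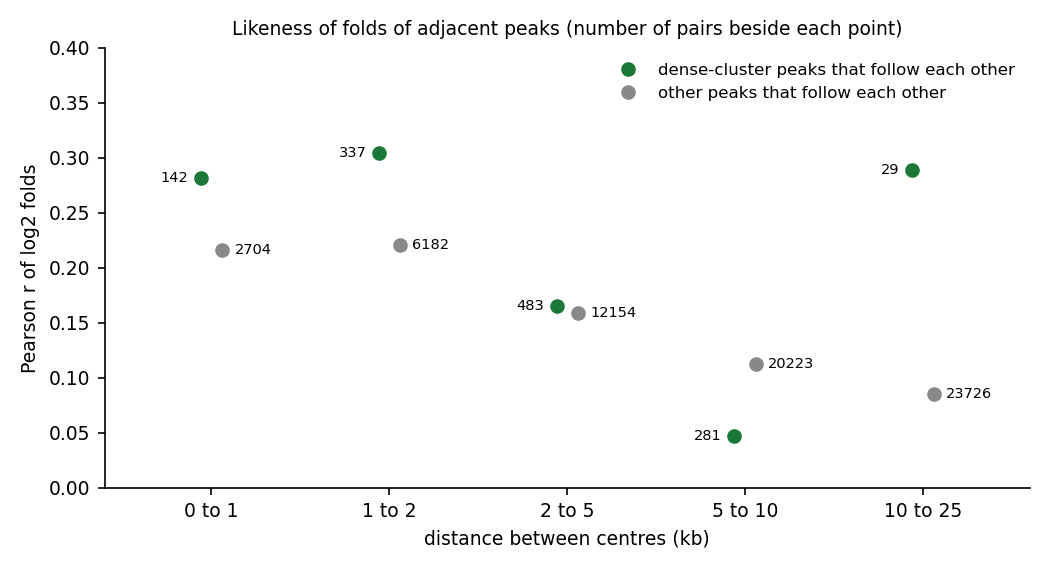
Pearson correlation of the log2 folds of peaks that follow each other on a chromosome, by the distance between their centres in kb, for dense-cluster peaks (green) and other peaks (grey), with the number of pairs beside each point. Among dense-cluster peaks it was 0.28 within 1 kb, 0.05 at 5 to 10 kb and 0.29 at 10 to 25 kb, where the point rests on 29 pairs.

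Called dense-cluster peaks lay mostly in introns. Of 132 gained and annotated dense-cluster peaks 75 (56.8%, against 48.4% over all consensus peaks) were intronic, 44 (33.3%, against 42.3%) intergenic and 12 (9.09%) within 1 kb of a start site per the authors' deposited table. Of 41 lost ones 26 (63.4%, against 43.5%) were intronic, 6 (14.6%, against 36.0%) intergenic and 8 (19.5%) within 1 kb of a start site. Over all consensus peaks 6.58% of gained and 20.1% of lost annotated peaks lay within 1 kb. Peaks beyond 50 kb of a start site made up 8.33% of the gained and 7.32% of the lost dense-cluster peaks, against 22.2% and 30.1% over all consensus peaks of the authors' deposited table. Intron 1 alone held 34 of the gained (25.8%, against 481 of 2675 over all consensus peaks) and 17 of the lost dense-cluster peaks (41.5%, against 298 of 1989). On a repeat lay 24 gained (18.2%, against 19.1%) and 2 lost peaks (4.88%, against 10.1%).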

How the data were processed

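ATAC-seq of 2 control and 2 Plagl1 knockout libraries was read from 2 tables. The submitters' processing notes name DiffBind 3.16.0, Bowtie2 2.5.4, deepTools 3.5.5, Trim Galore 0.6.10, HOMER, SAMtools 1.21, GATK 4.5.5.0 and mm39, without role. The peak caller, the shift of reads and the normalization were not given in the sources used here. Per the file headers, the authors' deposited values are, for each of 85925 consensus peaks, an edgeR log2 fold, a mean log2 CPM, an F score, a p-value and an FDR. The second table names genes for 15221 of them. Columns of libraries that no label assigns numbered 0.

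The FDR was checked to be Benjamini-Hochberg over all peaks, and a peak was called under 0.05. The standard error is the size of the log2 fold divided by the root of F. CPM is 2 to the deposited log2 CPM. Centres within 25 kb were counted per chromosome, and members within 25 kb joined into clusters named by the gene with most annotated members. The running median along signal spans 2000 peaks. Procedures were tested on simulated data. Shares carry exact Clopper-Pearson 95% intervals, for counting error only.

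Members and gene lists were chosen with earlier results of these data known. The text names the 8 largest clusters, the 5 with most gains and the 5 with most losses, the 10 largest gains and losses above the median signal (1 per gene), up to 3 genes per list, and promoters by p-value. Promoter windows were printed where a single listed window overlapped the peak by 100 bases, with the deposited distance taken as distance from the RefSeq start. Rin3, Lcp2, Ccr7, Irak2, Septin11, Wbp1l, Mir3089, Pxn and the full clusters of Spi1, Dusp1 and Myh9 were described after their values were seen. Host genes of introns were taken by name from the RefSeq table of GRCm38.p6 (287 of 287 transcripts matched). The tools were matplotlib 3.10.9, scipy 1.17.1, pandas 2.3.3, statsmodels 0.14.6, numpy 2.4.6 and Python 3.11.15.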

Additional observations from a re-analysis of the deposited data

How the results depend on the processing

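No paired analysis was possible because the deposited tables hold no value per library, and for the same reason no library could be left out. At an FDR under 0.01 there were 66 gained and 13 lost dense-cluster peaks, a gained share of 83.5%. With a log2 fold of 0.5 or more in size these were 57, 5 and 91.9%. With the trend along signal subtracted the lost peaks fell to 23 and the gained share was 87.6%. With a coefficient of variation of 0.1 added they were 1, 0 and 100%. Above the median signal the median log2 fold was 0.02. Moving the density rule changed the number of members: 15 or more neighbours left 23 members with 3 gained, 0 lost and a share of 100%, 8 or more gave 6696 with 399 gained and 166 lost. Within 15 kb, 10 neighbours left 32 members with 2 gained, 0 lost, a share of 100% and a median of 0.047. Within 50 kb they gave 24329 members with 1151 gained, 591 lost, a share of 66.1% and a median of 0.017. No direction reversed under these settings. With no limit on width (136 gained, 45 lost), with neighbours under 1500 bp alone (123 and 37) and, chosen after seeing the data, without the clusters of leukocyte, osteoclast or inflammatory list genes (124 and 43), counts stayed within 1.5 times. Clusters with at least 2 calls in 1 direction were 28, or 27 when joined within 10 kb and 36 with the trend subtracted. Of 43 named and called peaks, 1 kept its call with the added variation and 36 with the trend subtracted. Depth per library is unknown, so no limit from counting can be given.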
